A study of Homo sapiens with 10 samples.

Results

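Peaks of histone H4 symmetrically dimethylated at arginine 3 (H4R3me2s) were described in 9 glutamate receptor genes, GRID1, GRIK1, GRIK2, GRIK4, GRIN2A, GRIN2B, GRM5, GRM7 and GRM8, out of 19974 protein-coding genes on chromosomes 1 to 22 and X. A peak was assigned to a gene when it overlapped the gene's GRCh38 RefSeq span or 2 kb on either side, and the 9 windows summed to 5.49 Mb. A list of names, and no threshold on their peaks, defined them, but the names were chosen with earlier results of these data known. The 9 libraries held 140 peaks in these windows, 56 of them from BDNF+Dox, 45 from BDNF and 39 from Naive libraries.

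The libraries came from SH-SY5Y cells, a human neuroblastoma line, carrying a doxycycline-inducible (Tet-on) α-synuclein construct. BDNF+Dox cells (3 libraries) were differentiated for 10 days, first in 3% FCS containing retinoic acid at 10 µM (6 days) and afterwards in serum-free medium containing BDNF at 50 ng/ml (4 days), and α-synuclein was induced by doxycycline at 1 µg/ml during 3 days. BDNF cells (3 libraries) had the same retinoic acid and BDNF schedule without doxycycline, and Naive cells (3 libraries) had neither. All groups shared growth medium with 10% FCS and zeocin at 300 µg/ml, and a 10 minute fixation in 1% formaldehyde. One Input library, labelled as having no treatment, was the background for all 9 ChIP libraries, so their peak lists share it. The labels do not say that replicates were separate cultures, so each p-value reflects the spread among these libraries alone, which may be technical. Doxycycline and α-synuclein cannot be told apart in BDNF+Dox against BDNF, nor can retinoic acid, BDNF, serum and time in culture in BDNF against Naive. ChIP-seq holds no expression values, so neuronal markers were not checked.

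Glutamate is the main excitatory transmitter of the brain. Its ionotropic receptors (AMPA, kainate, NMDA and the related delta receptors) are ion channels built from several subunits, and its metabotropic receptors signal through G proteins. H4R3me2s is written mainly by the arginine methyltransferase PRMT5 and is best known as a mark of repressed chromatin. The question the design asks is whether the mark differs when α-synuclein is induced in differentiated cells, and whether it differs with differentiation.

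After removal of reads at the same position, 17164402 to 18928589 reads remained per ChIP library and 17074000 in the Input. Whole-library peak numbers were 10864, 6942 and 6330 in BDNF+Dox, 6171, 4536 and 6888 in BDNF, and 12207, 5901 and 7914 in Naive. The authors called these peaks at an unadjusted p of 0.01, and 83.3% of them had a q-value of 1. Tag length was 95 bp in BDNF+Dox replicate 3, 92 bp in BDNF replicate 3 and 100 bp in the others, and its part in the results was not tested.

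Promoter sequence was available for 7 of the 9 genes (15 start sites; none for GRID1 and GRIK1). Shown are the 250 bases upstream of the outermost start of GRM5, the gene, of these 7, with a library peak nearest to a start, of GRIN2B, the gene whose BDNF and Naive counts did not overlap, and of GRM8, the gene with most peaks. The sequences are from RefSeq (GRCh38.p14), on the minus strand, at chr11:89065983-89066232, chr12:13982135-13982384 and chr7:127252942-127253191, with each CG, the dinucleotide that carries DNA methylation and reads the same on both strands, in capitals.
GRM5: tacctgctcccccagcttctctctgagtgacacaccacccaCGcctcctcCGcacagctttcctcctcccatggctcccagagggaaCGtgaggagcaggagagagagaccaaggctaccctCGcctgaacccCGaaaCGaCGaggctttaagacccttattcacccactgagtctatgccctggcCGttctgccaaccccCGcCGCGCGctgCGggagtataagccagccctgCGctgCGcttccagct
GRIN2B: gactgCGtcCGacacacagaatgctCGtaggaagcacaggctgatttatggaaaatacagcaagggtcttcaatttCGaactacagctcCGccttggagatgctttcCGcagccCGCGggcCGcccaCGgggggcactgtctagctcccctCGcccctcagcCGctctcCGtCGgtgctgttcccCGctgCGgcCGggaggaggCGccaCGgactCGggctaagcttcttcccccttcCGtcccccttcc
GRM8: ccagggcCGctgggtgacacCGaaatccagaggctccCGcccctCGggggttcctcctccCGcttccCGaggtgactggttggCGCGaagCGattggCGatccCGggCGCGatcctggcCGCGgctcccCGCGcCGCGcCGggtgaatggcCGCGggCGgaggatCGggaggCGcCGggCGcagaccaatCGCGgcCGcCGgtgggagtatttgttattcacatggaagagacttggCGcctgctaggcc
These windows held 15 CG in GRM5, 21 in GRIN2B and 32 in GRM8, against a median of 11 over 35116 promoter windows of the same length. Of the 15 windows of the 7 genes, 9 held 10 or more CG, as did 52.2% of all windows. None of the 116 library peaks in these 7 genes overlapped any of the 15 windows. The windows are a very small part of the genes, and no share over all promoters is given. The absence of overlap therefore does not show that promoters were spared. The distance from the printed window to the nearest library peak was 1.19 kb in GRM5, 63.5 kb in GRIN2B and 42.4 kb in GRM8.

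Over the 9 genes together, peak density was 6.01, 2.73 and 1.46 peaks per Mb in BDNF+Dox libraries, 2.00, 3.46 and 2.73 in BDNF libraries, and 2.00, 2.37 and 2.73 in Naive libraries. BDNF+Dox averaged 3.40 ± 2.35, BDNF 2.73 ± 0.729 and Naive 2.37 ± 0.364 peaks per Mb (SD, n = 3 each), and the 3 groups overlapped. BDNF+Dox replicate 1 was the highest of the 9 libraries and BDNF+Dox replicate 3 the lowest. The ratio of means was 1.24 for BDNF+Dox over BDNF and 1.44 for BDNF+Dox over Naive. Without BDNF+Dox replicate 1 these ratios were 0.767 and 0.885, so 1 library set their direction. BDNF over Naive was 1.15. No test was made on this sum, because the members were chosen with results known.

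**Figure D1:**
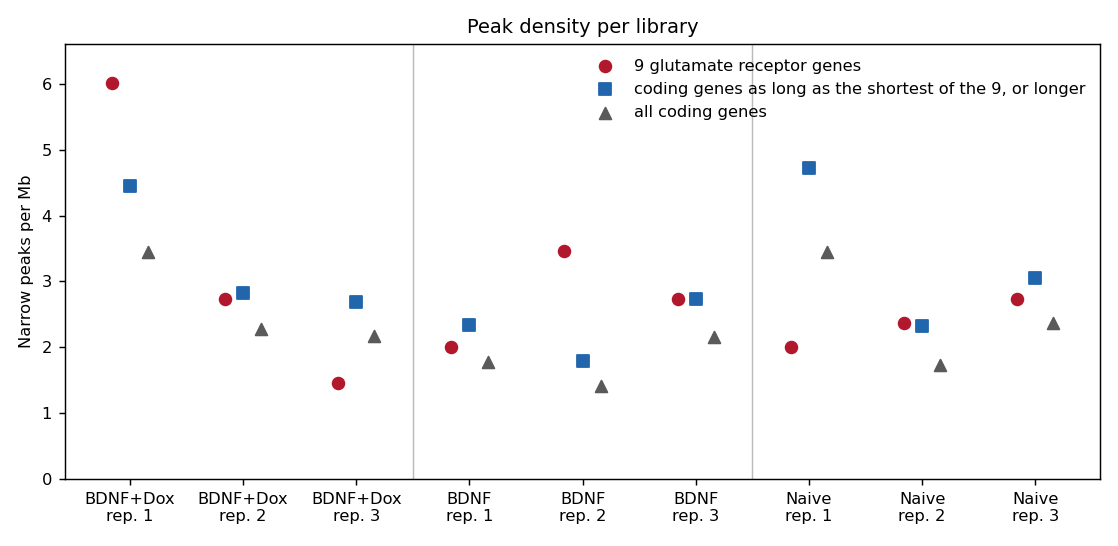
Narrow H4R3me2s peaks per Mb (linear axis) in each of the 9 libraries, for the 9 glutamate receptor genes (circles), coding genes as long as the shortest of them or longer (squares) and all coding genes (triangles). The circles span 1.46 to 6.01 within the BDNF+Dox libraries, wider than in BDNF or Naive, and Naive replicate 1 has a low circle under a high square.

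Long coding genes gave other ratios between the groups, a difference that was not tested. The 476 coding genes at least as long as the shortest member, GRIK1 (403 kb), had 4.44, 2.82 and 2.69 peaks per Mb in BDNF+Dox, 2.33, 1.80 and 2.74 in BDNF, and 4.71, 2.33 and 3.05 in Naive. Their ratios were 1.45 for BDNF+Dox over BDNF, 0.986 for BDNF+Dox over Naive and 0.681 for BDNF over Naive. Counted per 1000 peaks of the library, the receptor genes held 3.05, 2.17 and 1.27 in BDNF+Dox, 1.80, 4.22 and 2.19 in BDNF, and 0.906, 2.23 and 1.91 in Naive. On that scale BDNF+Dox over BDNF was 0.791, below 1, where peaks per Mb gave 1.24. At least 1 peak was present in 9, 8 and 5 of the 9 genes in BDNF+Dox libraries, in 6, 7 and 7 in BDNF libraries and in 6, 5 and 6 in Naive libraries. All 3 libraries of the group had a peak in 4 of the 9 genes for BDNF+Dox (GRIK2, GRM5, GRM7 and GRM8), in 5 for BDNF (GRID1, GRIN2B, GRM5, GRM7 and GRM8) and in 3 for Naive (GRIN2B, GRM7 and GRM8). Among the long coding genes this held for 55% with BDNF+Dox, 40.5% with BDNF and 51.7% with Naive libraries.

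No receptor gene was called in the test of the 3 groups over all genes, a test with little reach. Peak numbers per gene were compared by an exact permutation test (F ratio, every possible division of the 9 libraries into 3 groups) in the 2627 coding genes with a peak in at least 3 libraries. All 9 members passed this filter. At an adjusted p under 0.05 (Benjamini-Hochberg), 0 of 2627 genes were called (0%), and 0 of the 9 members. At an unadjusted p under 0.05, 70 genes (2.66%) were called and again 0 members, and the smallest p the design allows is 0.00357. An adjusted call would have needed 188 genes at that smallest p, and 1 gene had it, so the adjusted threshold was practically out of reach. Each member's adjusted p was 1. The p-values given for single genes below are unadjusted and two-sided, and a pair of groups cannot go below 0.1.

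GRID1 encodes a delta receptor, which binds the synaptic organisers of the cerebellin family and does not open in response to glutamate (chr10:85599552-86366795). It had 2, 4 and 0 peaks in BDNF+Dox, 3, 3 and 1 in BDNF, and 1, 0 and 0 in Naive. BDNF reached or exceeded Naive in every pair of libraries, and the groups met at 1 peak. The means were 2.33 ± 1.15 in BDNF and 0.333 ± 0.577 in Naive (SD, n = 3 each; exact permutation p = 0.2), and the 3-group exact p was 0.282.

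The kainate receptor genes had few peaks and overlapping groups. GRIK1 (chr21:29536933-29939996), a pore-forming kainate subunit, had 2, 2 and 0 peaks in BDNF+Dox, 2, 1 and 0 in BDNF, and 2, 0 and 1 in Naive (exact permutation p = 1). GRIK2 (plus strand, chr6:101393708-102070083), the kainate subunit of hippocampal mossy fibre synapses, had 2, 2 and 1 peaks in BDNF+Dox, 0, 3 and 3 in BDNF, and 1, 3 and 0 in Naive (exact permutation p = 0.957). The 3 groups overlapped in both genes. GRIK4 (plus strand, chr11:120511748-120988906), a high-affinity subunit that needs a partner such as GRIK1 or GRIK2 to form a channel, had 1, 0 and 1 peaks in BDNF+Dox, 0, 0 and 1 in BDNF, and 0 in each Naive library (exact permutation p = 0.679). With 3 peaks in 9 libraries, GRIK4 was the sparsest member.

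The NMDA receptor genes GRIN2A (minus strand, chr16:9753404-10182908) and GRIN2B (minus strand, chr12:13537337-13982134) encode alternative glutamate-binding subunits, GRIN2B being the earlier one in brain development. GRIN2A had 3, 1 and 0 peaks in BDNF+Dox, 0 in each BDNF library, and 0, 0 and 1 in Naive (exact permutation p = 0.464). Of its 5 peaks, 3 came from BDNF+Dox replicate 1. GRIN2B had 5, 1 and 0 peaks in BDNF+Dox, 3, 3 and 3 in BDNF, and 1, 1 and 1 in Naive. Every BDNF library was above every Naive library, and BDNF+Dox libraries lay on both sides of BDNF and Naive. The difference between BDNF and Naive was 2 peaks (exact permutation p = 0.1, the smallest possible), and the 3-group exact p was 0.314.

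GRIN2B was the only one of the 9 members with a pair of groups whose counts did not overlap, and that pair was BDNF against Naive. Every BDNF library was above every Naive library in 0.571% of the 2627 genes (15) and in 0.862% of the 464 long genes tested. At −log10 p of 3 or more, GRIN2B had 1, 3 and 1 peaks in BDNF and 1, 0 and 1 in Naive, and the groups met. The same held with the 4536 strongest peaks of each library, where GRIN2B had 2, 3 and 1 peaks in BDNF and 1, 0 and 1 in Naive. Under both settings GRID1 separated instead, with 3, 3 and 1 peaks in BDNF and 0 in each Naive library. This separation was found in 0.695% of 2014 genes at −log10 p of 3 or more and in 1.88% of 1650 genes with equal peak numbers. No member had every BDNF+Dox library above every BDNF library (background 4.61% of genes tested and 7.76% of the long ones) or below it (0.571% and 0.647%), and none had every BDNF+Dox library above every Naive library (2.55% and 3.23%) or below it (1.48% and 1.94%). None had every BDNF library below every Naive library (3.16% and 4.96%). Leaving out 1 library cannot undo a complete separation, so GRIN2B necessarily kept its own when each library was left out in turn. In these settings every BDNF library was above every Naive library in 0.642% to 3.04% of the genes tested. GRID1 joined GRIN2B without BDNF replicate 3 (background 1.84%) or Naive replicate 1 (2.28%). Without BDNF+Dox replicate 1, GRIN2B was lower in BDNF+Dox than in BDNF (background 1.92%) and GRM8 lower in BDNF+Dox than in Naive (4.44%). Without BDNF+Dox replicate 2, GRM5 was higher in BDNF+Dox than in BDNF (background 11.5%), and GRM5 and GRIK4 were higher in BDNF+Dox than in Naive (5.01%). Without BDNF+Dox replicate 3, GRIN2A was higher in BDNF+Dox than in BDNF (background 11.0%) and GRID1 higher in BDNF+Dox than in Naive (6.53%). Leaving out BDNF replicate 1 put GRIK2 lower in BDNF+Dox than in BDNF (background 2.14%), and leaving out Naive replicate 3 put GRM5 higher in BDNF+Dox than in Naive (4.54%). GRM8 was lower in BDNF than in Naive without BDNF replicate 2 (background 4.51%) or Naive replicate 3 (8.04%). With 9 members, 1 gene is already 11.1% of them, and none of these separations was tested against the background.

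**Figure D2:**
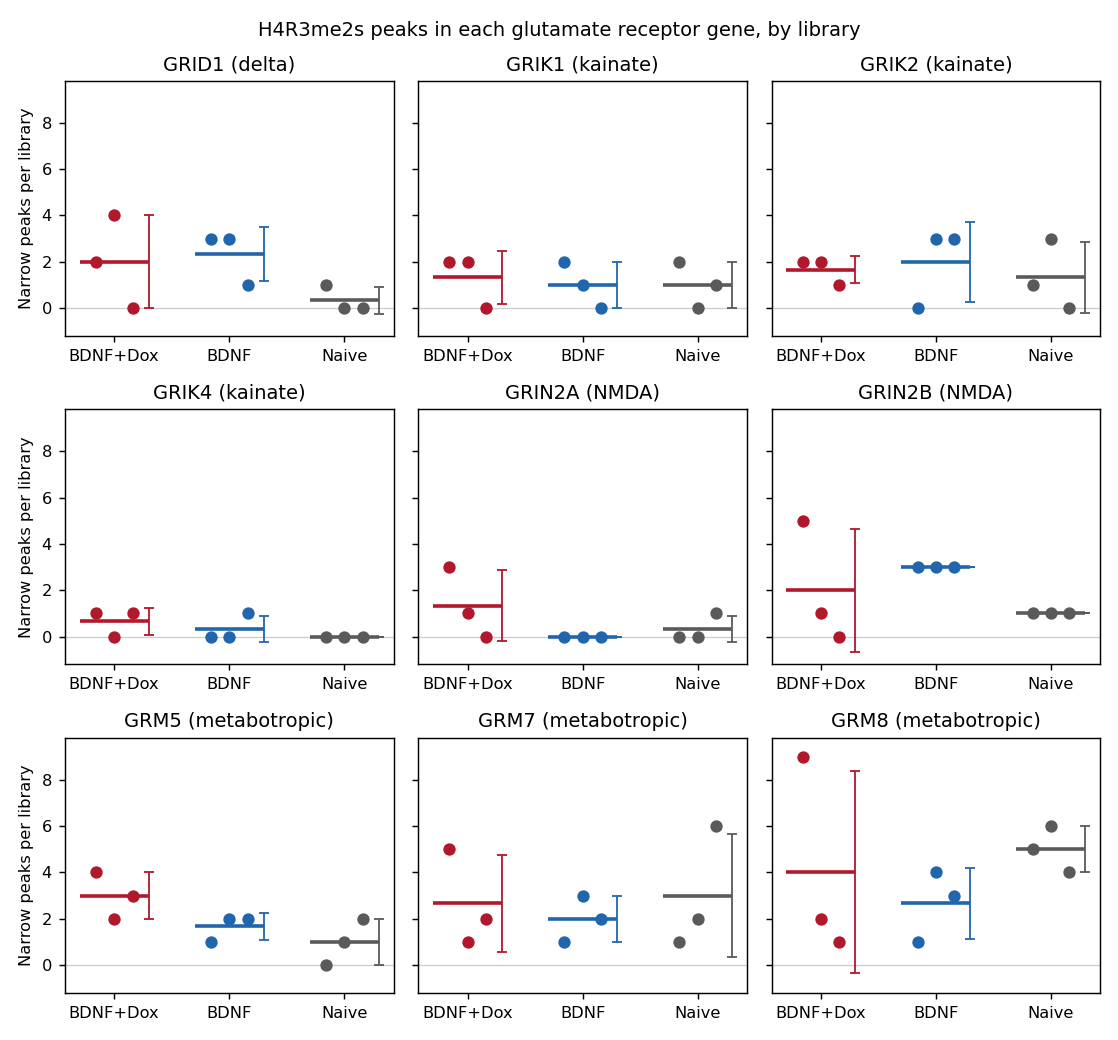
Narrow peaks per library (linear axis) in each of the 9 glutamate receptor genes, with BDNF+Dox, BDNF and Naive side by side. Points are libraries in replicate order, horizontal lines are group means and error bars are SD (n = 3); GRIN2B has 3 peaks in each BDNF library and 1 in each Naive library, and the BDNF+Dox points of GRM8 run from 1 to 9.

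Pooled over the 9 libraries, the metabotropic genes held most of the peaks, in 2.27 of 5.49 Mb. Neither the single BDNF libraries (3 of 11, 9 of 19 and 7 of 15 peaks) nor BDNF+Dox replicate 2 (5 of 15) showed this. Per Mb, the metabotropic BDNF mean was 2.79, against 3.40 for the NMDA genes, 3.03 for GRID1 and 2.13 for the kainate genes. The metabotropic mean was the highest of the receptor classes for BDNF+Dox (4.26 ± 3.19, SD) and for Naive (3.97 ± 1.32). BDNF+Dox replicate 1 held 18 metabotropic peaks, and replicates 2 and 3 held 5 and 6. GRM5 (minus strand, chr11:88504642-89065982), a postsynaptic group I receptor that activates phospholipase C, had 4, 2 and 3 peaks in BDNF+Dox, 1, 2 and 2 in BDNF, and 0, 1 and 2 in Naive. BDNF+Dox averaged 3.00 ± 1.00, BDNF 1.67 ± 0.577 and Naive 1.00 ± 1.00 peaks (SD, n = 3 each; 3-group exact permutation p = 0.121, the lowest of the 9 members). BDNF+Dox reached but did not clear the highest library of BDNF and of Naive, both at 2 (exact permutation p = 0.3 over BDNF and p = 0.2 over Naive). GRM7 (plus strand, chr3:6861115-7741533), a presynaptic group III receptor of low glutamate affinity, had 5, 1 and 2 peaks in BDNF+Dox, 1, 3 and 2 in BDNF, and 1, 2 and 6 in Naive (exact permutation p = 0.936). The highest count of GRM7 was in a Naive library. GRM8 (minus strand, chr7:126438598-127252941), another presynaptic group III receptor, had 9, 2 and 1 peaks in BDNF+Dox, 1, 4 and 3 in BDNF, and 5, 6 and 4 in Naive. Its 3-group exact permutation p was 0.646, and BDNF against Naive gave an exact p of 0.2. The BDNF+Dox libraries of GRM8 included both the highest and, with BDNF replicate 1, the lowest count.

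Per length, averaged over the 9 libraries, GRM8 had the highest density, 4.75 ± 3.14 peaks per Mb (SD over libraries). This average pools groups that differ in order, since by group mean GRM5 was highest in BDNF+Dox (5.31, against 4.89 for GRM8), GRIN2B in BDNF (6.68, against 3.26 for GRM8) and GRM8 in Naive (6.11). In the average GRM8 was followed by GRIN2B (4.46 ± 3.52), GRM5 (3.34 ± 2.06), GRM7 (2.89 ± 2.05), GRIK1 (2.73 ± 2.28), GRIK2 (2.45 ± 1.80), GRID1 (2.02 ± 1.96), GRIN2A (1.28 ± 2.34) and GRIK4 (0.693 ± 1.04). No neighbours in this order differed by more than the larger of their SDs. The gap between GRM8 and GRIK4, 4.06 peaks per Mb, was above the larger SD of 3.14. Against the 476 long coding genes, with a median of 2.80 and quartiles of 1.79 and 3.87 peaks per Mb, 4 members lay above the median and 5 below. GRM8 ranked 46 and GRIK4 ranked 460 of 476. Chromosome 7, which carries GRM8, had 4.09 peaks per Mb, 159% of the genome value, whereas the chromosomes of the other members lay between 54.4% and 107%. Whether this chromosome-wide level bears on the rank of GRM8 was not tested.

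**Figure D3:**
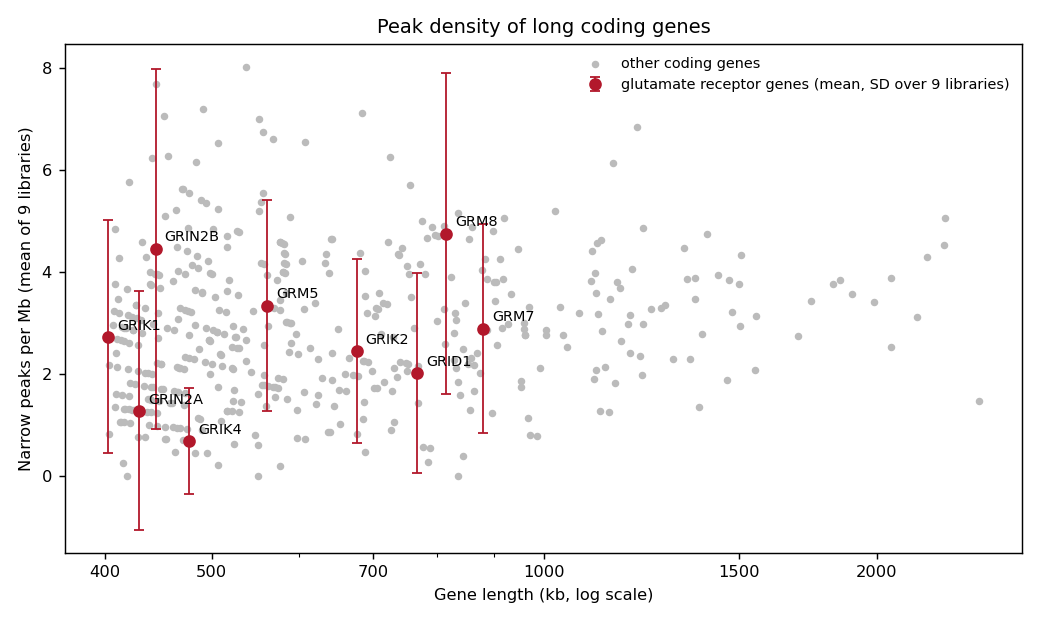
Mean narrow peaks per Mb over 9 libraries (linear axis) against gene length (kb, log axis) for the long coding genes (grey) and the 9 glutamate receptor genes (red, error bars SD over 9 libraries). The red points run from 0.693 (GRIK4) to 4.75 (GRM8) inside the grey cloud, with overlapping error bars between neighbours.

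Peaks in the receptor genes rarely fell at the same place in different libraries. The 140 library peaks formed 137 distinct regions, of which 134 were found in 1 library, 3 in 2 libraries and 0 in 3 or more. None was shared by 2 libraries of 1 group, and in long coding genes 56 of 8811 regions (0.636%) were. The share found in 2 or more libraries, 2.19%, was near that of the long coding genes (2.52% of 8811 regions). The 3 shared regions, named after their values were seen, paired libraries of different groups. At the lower-coordinate end of GRIK1, chr21:29536512-29536866 was found in BDNF+Dox replicate 2 and Naive replicate 1. Further inside GRIK1, chr21:29885289-29885674 was found in BDNF+Dox replicate 1 and BDNF replicate 1. In GRM8, chr7:126501384-126501642 was found in BDNF+Dox replicate 1 and Naive replicate 2, and it also lies in the long noncoding RNA gene LOC101928357. With a tolerance of 1 kb, 22 of the 140 peaks (15.7%) had a peak of another library nearby, against 12.1% in the long coding genes.

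**Figure D4:**
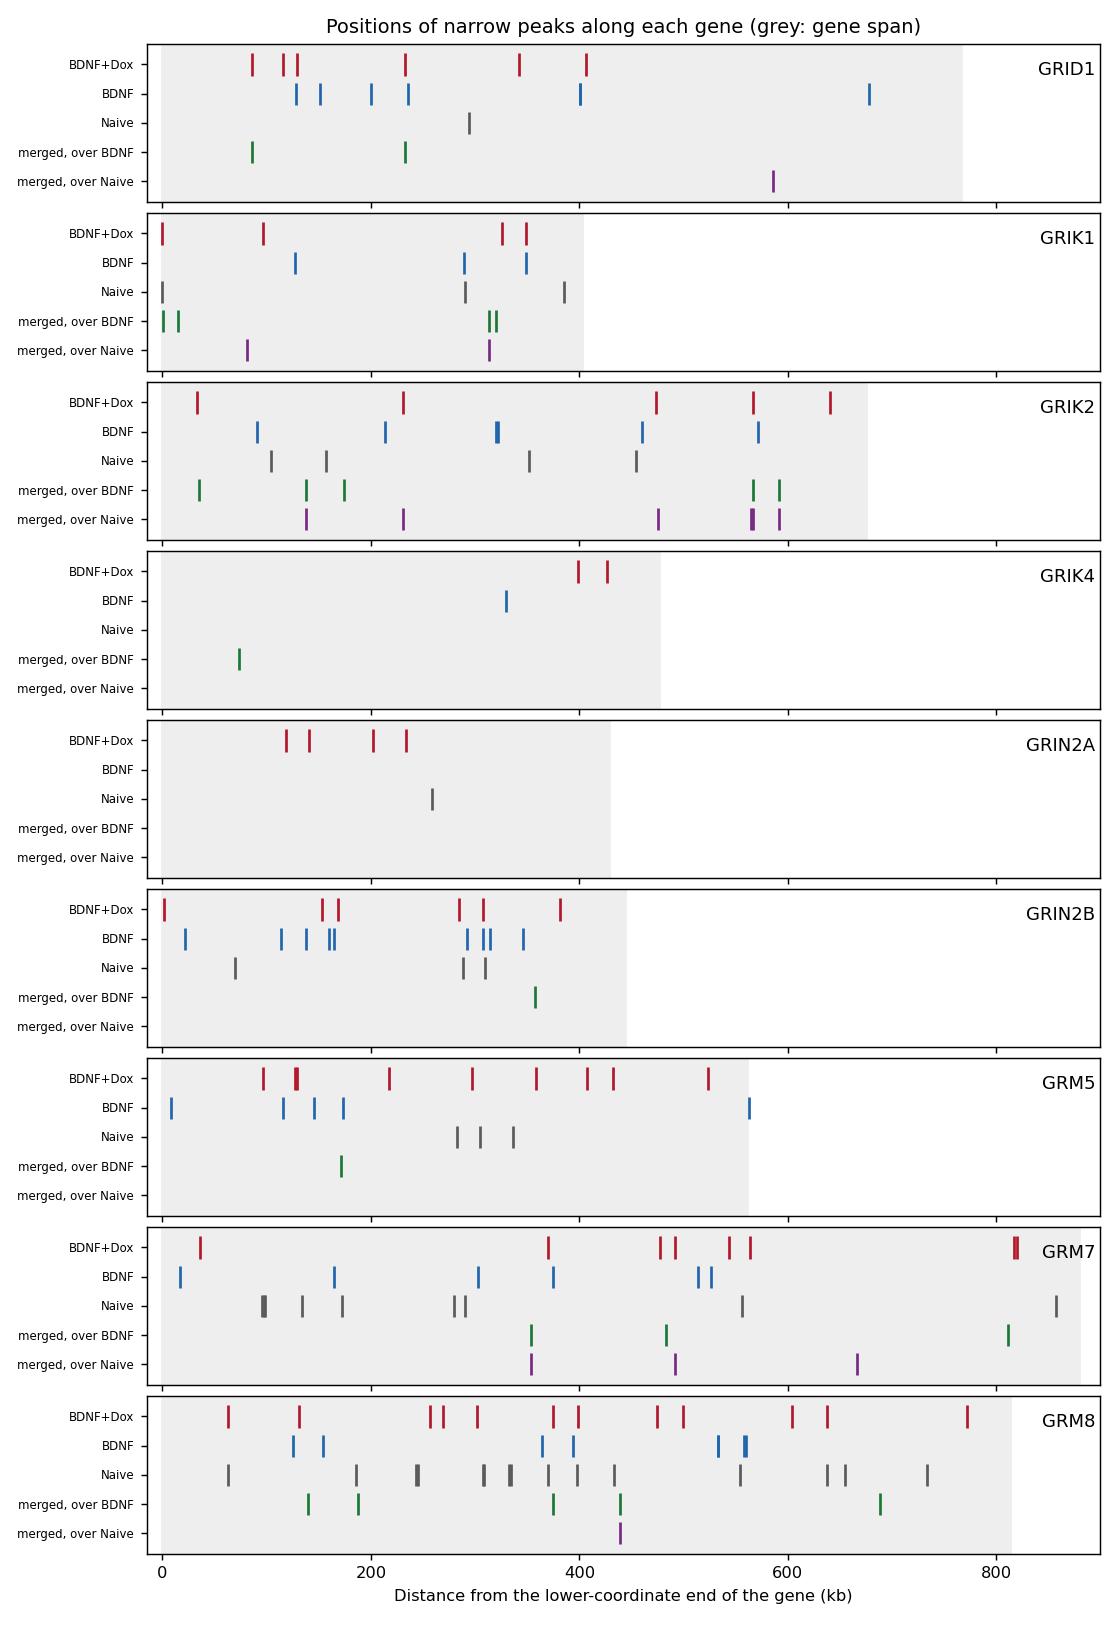
Positions of narrow peaks along the 9 glutamate receptor genes, in kb from the lower-coordinate end of each gene (linear axis, grey is the gene span), with the peaks of the 3 libraries of a group drawn on 1 line and the merged BDNF+Dox lists below. Marks are spread along the spans and few align between lines; GRIN2A has no mark for BDNF or for either merged list.

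The peaks were short and weak by the authors' own values, as library peaks were in general. Their median length was 176 bp (178 bp over all library peaks) and their median fold enrichment over local background 3.39 (3.47). A q-value of 1 was held by 89.3% (83.3% over all library peaks). None reached a q of 0.05, a level met by only 0.397% of all library peaks. Fold and q are the authors', computed within each list. According to the file headers no q-value was to be computed, yet the q column is filled, and its values are given here as deposited. The smallest q in the 9 genes, 0.200, belonged to a GRIN2B peak of Naive replicate 1 at chr12:13825969-13826192 (fold 4.81). In BDNF+Dox libraries it was 0.360, in GRM5 at chr11:88937030-88937240 in replicate 1 (fold 4.73). The peak nearest to a known start lay in the 5′ flank of GRM5, at chr11:89067422-89067574 in BDNF replicate 2, 1.44 kb from the start (fold 4.33, q of 1). It was the only library peak within 2 kb of a start in the 7 genes with known starts. In GRIK1, whose start is not in the tables used, peaks lay 0.067 kb (BDNF+Dox replicate 2) and 0.144 kb (Naive replicate 1) from the lower-coordinate gene end. The span of each of the 7 genes with a known strand was divided into 3 equal parts, counted from the 5′ end. Of their 116 peaks, 34 lay in the first part, 46 in the middle and 36 in the last. A peak in a flank was put in the nearest part. Exons and introns were not told apart with the annotation used here.

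The authors also called BDNF+Dox over BDNF and BDNF+Dox over Naive from 1 merged file per group. These lists have no replicates, report only higher signal in BDNF+Dox and share the BDNF+Dox reads. In the authors' deposited table over BDNF, 22 narrow peaks lay in 8 of the 9 genes, 5 each in GRIK2 and GRM8, 4 in GRIK1, 3 in GRM7, 2 in GRID1, 1 each in GRIK4, GRIN2B and GRM5, and 0 in GRIN2A. At least 1 peak was present in 14.7% of all coding genes and 87% of the long ones. In the authors' deposited table over Naive, 13 narrow peaks lay in 5 of the 9 genes, 6 in GRIK2, 3 in GRM7, 2 in GRIK1, and 1 each in GRID1 and GRM8. There the background was 13.1% of all coding genes and 78.2% of the long ones. Density in the 9 genes was 4.01 peaks per Mb over BDNF and 2.37 over Naive in the authors' deposited tables, against 4.30 and 3.34 in the long coding genes.

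No pooled peak in the 9 genes reached a q of 0.05, a level met in 0.12% of coding genes (1.47% of the long ones) over BDNF and 0.19% (1.68%) over Naive. The smallest q over BDNF in the authors' deposited table was 0.160, in GRM8 at chr7:126577837-126578000 (fold 3.21), and 230 of 9850 peaks in that list had a higher −log10 p. The next, in GRIK4 at chr11:120584622-120584784, had a fold of 3.37 and a q of 0.455 in the authors' deposited table. Over Naive the smallest q in the authors' deposited table was 0.0760, in GRM7 at chr3:7527756-7527918 (fold 3.71), inside the antisense gene GRM7-AS1. In that comparison 141 of the 7882 peaks ranked, from a list of 7919, had a higher −log10 p. In GRIK2, chr6:101530873-101531089 had a fold of 3.72 and a q of 0.125 in the authors' deposited table. Library support was thin in the 9 genes. The same share over the whole lists is not given, so this cannot be read as particular to them. Of the 22 narrow peaks over BDNF, 4 overlapped a peak of 1 BDNF+Dox library called over Input, and of the 13 over Naive 2 did. None overlapped peaks of more than 1 BDNF+Dox library. The GRM8, GRIK4, GRM7 and GRIK2 peaks given here by position overlapped none.

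**Figure D5:**
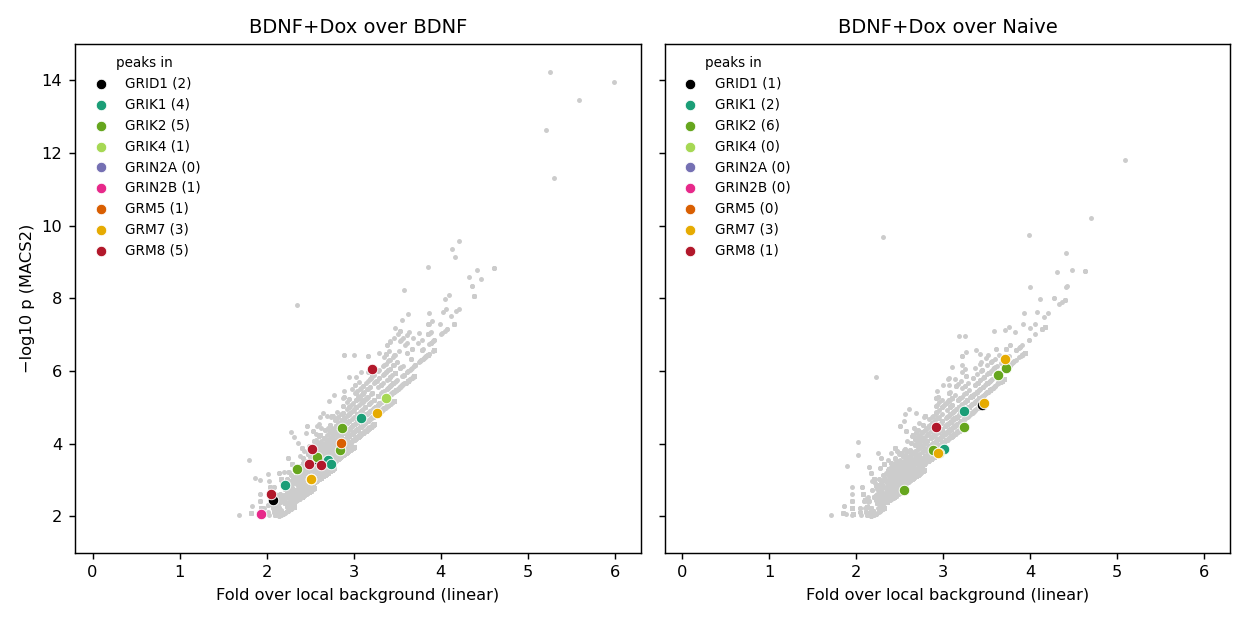
−log10 p against fold over local background (both axes linear in these units) for the authors' deposited narrow peaks of merged BDNF+Dox over BDNF (left) and over Naive (right), with peaks in the 9 glutamate receptor genes in colour and the number per gene in the legend. Coloured points lie within the grey cloud of the whole list, the highest being GRM8 at fold 3.21 on the left and GRM7 at fold 3.71 on the right.

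The broad lists held more peaks, of lower fold. Signal is given at the highest point of a peak or as a mean over the region. Broad and narrow folds may therefore not be the same measure. In the authors' deposited tables the median fold in the 9 genes was 2.28 for broad and 2.59 for narrow peaks over BDNF, and 2.31 for broad and 3.24 for narrow peaks over Naive. In the authors' deposited table over BDNF, 56 broad peaks in all 9 genes covered 19.4 kb, led by GRIK2 with 18, GRM8 with 13 and GRM7 with 10. In the authors' deposited table over Naive, 42 broad peaks in 8 genes covered 14.3 kb, with 12 in GRIK2, 8 each in GRM7 and GRM8, and 0 in GRIK4. A broad peak was present in 97.9% of the long coding genes over BDNF and 95.8% over Naive (25.5% and 23.7% of all coding genes). Broad density in the 9 genes was 10.2 peaks per Mb over BDNF and 7.65 over Naive in the authors' deposited tables, against 10.9 and 8.73 in the long coding genes. GRIK2 was the densest member, at 26.5 broad peaks per Mb over BDNF and 17.6 over Naive in the authors' deposited tables. No broad peak in the 9 genes had a q of 0.05 or less, and neither did one in any coding gene (0% in both comparisons).

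None of the other 17 glutamate receptor genes was called. A library peak was found in 9 of them (37.3% of all coding genes had one), 7 could be tested and 0 were called, with 0 at an unadjusted p under 0.05. In 1 of them, the AMPA receptor gene GRIA4, every BDNF+Dox library (1, 1 and 1 peaks) was below every Naive library (2, 2 and 2). All 7 of those shorter than 100 kb had no library peak, and the share over all coding genes of that length is not given. The densest was GRM3, a presynaptic and glial group II receptor on chromosome 7, with 1, 2 and 2 peaks in BDNF+Dox, 1, 0 and 0 in BDNF, and 5, 0 and 0 in Naive. Of 39 genes for receptor partners (auxiliary subunits, scaffolds, transporters and cerebellins), 23 had a library peak, 8 could be tested and 0 were called. Among the 23 partner genes shorter than 100 kb, 9 had a library peak. The scaffold gene DLG2 had 7, 5 and 5 peaks in BDNF+Dox and 10, 8 and 14 in Naive, again without overlap, a separation seen in 1.48% of the genes tested. A narrow peak in the authors' deposited table over BDNF was present in 5 of the 17 receptors and 11 of the 39 partners. The background was 14.7% of all coding genes and 87% of the long ones. Over Naive such a peak was present in 6 and 9 (background 13.1% and 78.2%). None of the peaks in these receptors and partners reached a q of 0.05. The median difference in peaks per gene between group means was 0.333 for BDNF+Dox minus BDNF in the 9 members and 0.333 over all genes tested. It was 0.667 for BDNF+Dox minus Naive, against 0 over all genes tested, and 0.333 for BDNF minus Naive, against -0.333 over all genes tested.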

How the data were processed

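The data are H4R3me2s ChIP-seq peak lists of 9 libraries in 3 groups, with 1 shared Input. Per the submitters' processing notes, cutadapt 1.1, Trimmomatic 0.32, Bowtie, MACS2 2.2.7.1 and the build GRCh38 were used. Per the file headers, narrow peaks were called against the Input at p of 0.01, and merged BDNF+Dox over BDNF and over Naive as narrow and broad peaks (broad cutoff 0.01), keeping 1 read per position. The merged groups kept 54723304 (BDNF+Dox), 52693520 (BDNF) and 53481523 (Naive) reads. Each deposited peak has a length in bp, a pileup height (coverage signal), a −log10 p-value, a −log10 q-value and a fold enrichment (ratio over local background), all made by the authors. The lists hold no read counts, so peaks per gene were counted and compared over libraries with Python 3.11.15, numpy 2.4.6 and pandas 2.3.3, by exact permutation with Benjamini-Hochberg adjustment over all coding genes with a peak in at least 3 libraries. The procedure was tested on simulated data. Peaks of different libraries were merged at 1 bp overlap. The named genes are all 9 members, and named regions are the merged-list peaks of smallest q and the regions shared by libraries. The members and gene lists were chosen with earlier results of these data known. Alternatives were the span alone, −log10 p of 3 or more, equal peak numbers, other scales, no filter, a replicate block, 50% overlap and leaving out each library.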

Additional observations from a re-analysis of the deposited data

How the results depend on the processing

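In the 117 alternative tests of single members the adjusted p was 1, which says little because the smallest p of the design puts adjusted calls practically out of reach. The smallest unadjusted exact permutation p of these 117 was 0.0143, for GRIN2B without BDNF+Dox replicate 1. In that setting 65 of 2185 genes had an unadjusted p under 0.05 in the same test. Of 14 settings, GRIK4 had too few libraries with a peak for a test in 5 (3 leave-one-out settings, −log10 p of 3 or more, equal peak number) and GRIN2A in 4 (3 leave-one-out settings, equal peak number). No gene of the whole table had an adjusted p under 0.05 in any setting. At −log10 p of 3 or more, 8 genes had BDNF+Dox below BDNF, 24 had BDNF+Dox below Naive and 54 had BDNF below Naive without overlap, and 7 broad peaks were left over BDNF and 7 over Naive. With 4536 peaks per library, 34 genes had an unadjusted p under 0.05, against 70. Non-overlapping genes then numbered 34 (BDNF+Dox above BDNF), 40 and 16 (BDNF+Dox above and below Naive), and 31 and 21 (BDNF above and below Naive), and 1 shared region was left. BDNF over Naive was 1.63 per 1000 peaks of the library and 1.60 relative to the members' chromosomes, where BDNF+Dox over BDNF was 0.791 and 0.794. At 50% reciprocal overlap 1 shared region was left, and with 50% of the merged peak covered 2 narrow peaks over BDNF had library support. At q of 0.05 or less, 0 merged peaks were left in the 9 genes in each of the 4 lists. The cause of these shifts was not tested.

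Leaving out each library in turn gave ratios of 0.767 to 1.60 (BDNF+Dox over BDNF), 0.885 to 1.85 (BDNF+Dox over Naive) and 1 to 1.31 (BDNF over Naive), 1 to 3 shared regions, and 62 to 101 genes with an unadjusted p under 0.05. Non-overlapping genes numbered 121 to 268 and 15 to 66 (BDNF+Dox above and below BDNF), 67 to 151 and 39 to 137 (BDNF+Dox above and below Naive), and 15 to 74 and 83 to 266 (BDNF above and below Naive), partly because fewer libraries overlap less often. Same-numbered libraries correlated between -0.0572 and 0.133 and other pairs between -0.149 and 0.0955. These values gave no sign of pairing but cannot exclude that the numbers mark shared runs or cultures. The tag lengths under 100 bp, 95 and 92 bp, were both in replicate 3 libraries. With the replicate block 5 genes had an unadjusted p under 0.05. Its smallest p was 0.0278, and an adjusted call would have needed 1460 genes at it, so its count of 0 was fixed by the design. Peak lists give no reads below the authors' threshold, so a gene without a peak cannot be called free of the mark.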
